A study of Mus musculus with 2 samples.

Results

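Cycling bone marrow cells that already carried secondary-granule RNA, here called cycling preNeu-like cells, were taken from droplet-based 3′ single-cell RNA-seq of mouse bone marrow. A barcode was kept when it held 200 to 9000 detected genes, at most 30% of its UMIs (unique molecular identifiers, each counting 1 captured transcript) from mitochondrial genes and at least 2000 UMIs. Cycling preNeu-like cells were the kept barcodes with at least 2% of their UMIs from Camp, Ngp and Ltf together, at least 2 UMIs from Mki67 and Top2a together, and less than 0.5% from Retnlg. This rule selected 2308 of 11761 kept barcodes, 1405 of 7252 in the Ctrl library and 903 of 4509 in the cKO library. The cells were thus selected on measured levels of Camp, Ngp, Ltf, Mki67, Top2a and Retnlg, whose values describe the selection and are not findings.

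The study asked how loss of Map4k4, a serine/threonine kinase of the MAP4K family, affects neutrophil production. The cKO library came from C57BL/6 mice with floxed Map4k4 alleles and Mx1-Cre, an interferon-inducible Cre that acts beyond the neutrophil lineage. It is switched on by injections of poly I:C, which itself raises interferon. For the floxed mice, the methods place these injections weeks before the experiments. The Ctrl library came from littermates that the methods list as Mx1-Cre Map4k4-/-, a notation that does not say whether the alleles were intact, and whether they received poly I:C was not given in the sources used here. Each library was made from mice of 13 to 14 weeks and mixed 2 parts of bead-enriched c-Kit-positive progenitors with 3 parts of red-cell-lysed bone marrow, so shares of barcodes reflect the mixture and not the marrow. There was 1 library per genotype, so differences between them lack a replicate check, no p-value is given, and every interval covers counting error only.

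Neutrophils mature from proliferating progenitors through proNeu, preNeu and immature stages to the mature cell. Azurophil (primary) granule proteins such as myeloperoxidase and elastase are made early, and specific (secondary) granule proteins such as lactoferrin and cathelicidin are made next. The preNeu stage is the last that divides, so that secondary-granule transcription and the cell cycle overlap in it. C/EBPε is a transcription factor needed for secondary-granule genes, and cell cycle genes of the late phases are commonly controlled through CHR and CCAAT promoter elements.

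The promoters of genes from both programmes are shown because the rule joined the programmes in single cells. Each is the strand that reads toward the gene, taken from RefSeq on GRCm38.p6, with bases that overlap the GENCODE gene left out. Capitals mark TTGCNNAA (a C/EBP-type sequence) in Ltf and Fcnb, and TTTGAA (CHR) and CCAAT in Top2a and Mki67, on either strand.
Ltf, chr9:111019042-111019270, plus strand: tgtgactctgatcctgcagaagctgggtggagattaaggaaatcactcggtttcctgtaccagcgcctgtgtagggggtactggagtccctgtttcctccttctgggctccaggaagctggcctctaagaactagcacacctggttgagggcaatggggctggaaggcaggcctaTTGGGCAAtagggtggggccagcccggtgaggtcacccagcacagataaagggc
Fcnb, chr2:28084886-28085128, minus strand: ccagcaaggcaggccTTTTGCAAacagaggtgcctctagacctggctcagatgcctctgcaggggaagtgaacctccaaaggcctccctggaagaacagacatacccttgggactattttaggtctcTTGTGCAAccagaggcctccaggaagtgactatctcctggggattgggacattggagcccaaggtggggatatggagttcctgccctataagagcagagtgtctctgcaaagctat
Top2a, chr11:99024190-99024439, minus strand: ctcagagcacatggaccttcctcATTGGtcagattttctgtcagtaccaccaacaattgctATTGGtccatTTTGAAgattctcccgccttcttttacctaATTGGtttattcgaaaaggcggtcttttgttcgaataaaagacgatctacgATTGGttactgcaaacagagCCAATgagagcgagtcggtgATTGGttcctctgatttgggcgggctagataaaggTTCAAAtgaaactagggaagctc
Mki67, chr7:135716380-135716629, minus strand: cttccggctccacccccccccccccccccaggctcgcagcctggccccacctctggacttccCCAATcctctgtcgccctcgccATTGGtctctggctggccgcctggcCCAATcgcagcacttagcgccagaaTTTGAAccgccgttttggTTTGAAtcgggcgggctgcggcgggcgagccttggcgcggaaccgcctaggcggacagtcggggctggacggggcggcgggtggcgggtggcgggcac

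Top2a held 6 CCAAT and 2 TTTGAA matches, and Mki67 held 3 and 2. Of the 43 mitosis genes listed, 37 had a promoter entry, and CCAAT was found in 29 of them (78.4%) within 250 bases upstream, against 34.5% of 27025 gene promoters. TTTGAA was found in 14 of the 37 (37.8%) against 16.3% of all promoters. Of the 34 DNA replication genes, 27 had a promoter entry. CCAAT was found in 17 of these (63.0%), TTTGAA in 3 (11.1%) and TTGCNNAA in 3 (11.1%). TTGCNNAA was found in 6 of 14 secondary-granule promoters (42.9%) against 9.55% of all, and in 0 of the 37 mitosis promoters. No TTGCNNAA match was found in the 250 bases upstream of Chil3 or in the 89 bases left for Camp. A match describes the letters in these windows and not a binding site.

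Depth differed between the libraries. For Ctrl, 71527701 UMIs were deposited over 10220 barcodes, and for cKO 64393950 over 6872. The selected cells contributed 16144848 UMIs in Ctrl and 16969119 in cKO, or 23.7% and 27.3% of the UMIs of all kept barcodes. Their median was 10608 UMIs per cell in Ctrl (quartiles 6784 and 14923) and 18297 in cKO (quartiles 11312 and 24860), with 2522 and 3050.0 detected genes. The order of detected genes reversed when every cell was thinned to 2000 UMIs, to 788 in Ctrl and 712 in cKO. In the thinned data the cells lay between cycling primary-granule cells (1040.0 and 951 genes) and granule cells without Mki67 or Top2a (719 and 630.0 genes).

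Barcode sequences were shared between the libraries. Of the deposited barcodes, 3010 occurred in both libraries, and 2259 were kept in both. Among the Ctrl cells chosen, 558 had a sequence that was also deposited for cKO, 540 of the cKO cells had one in Ctrl, and 115 sequences were chosen in both. Without all sequences deposited in both libraries, 847 Ctrl and 363 cKO cells were left, 18.4% and 18.3% of the kept barcodes.

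The label was examined on Chil3 and Fcnb, the 2 of its 6 markers that the rule did not use. Chil3, which encodes a chitinase-like secreted protein of immature neutrophils, stood at 8037 CPM (UMIs summed over the cells and scaled to a common total) in Ctrl and 7316 CPM in cKO, against 982 and 1282 CPM in the other kept barcodes. Fcnb, which encodes ficolin B, a lectin of immature neutrophils, stood at 1479 and 1429.6 CPM against 217 and 242 CPM. After thinning to 2000 UMIs, Fcnb was detected in 72.2% of Ctrl and 76.5% of cKO cells. It was detected in 12.8% and 8.51% of B lineage barcodes (437 in Ctrl, 47 in cKO, with 3958 and 13835 median UMIs), which should lack the gene. Chil3 was detected in 98.7% and 97.7% of the cells, against 45.8% and 23.4% of B lineage barcodes. Both markers were thus far above the level in B lineage barcodes, in both libraries. In granule cells without Mki67 or Top2a, the same thinning left Chil3 detected in 99.4% in Ctrl and 99.1% in cKO. Fcnb was detected there in 30.9% and 32.6%. Detection of Chil3 thus did not separate the selected cells from these granule cells, and detection of Fcnb did so in part.

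The marker lists of other lineages summed to less CPM than in the other kept barcodes, except the macrophage list in Ctrl. That list had 80.4 against 65.7 CPM in Ctrl and 31.3 against 32.7 CPM in cKO. The erythroid list of 8 genes summed to 785 CPM in Ctrl and 35.5 CPM in cKO, and all 8 were detected in both, led by Hbb-bs in Ctrl and Car2 in cKO. The B and plasma cell list of 8 summed to 155 and 21.8 CPM, led by Jchain, with Igll1 at 0 in cKO. The monocyte list of 9 summed to 1457 and 1532 CPM, of which Ly6c2 alone gave 1356 and 1514 CPM. Its defining members Csf1r (6.75 and 1.12 CPM), Ccr2 (16.0 and 2.24 CPM) and Fn1 (13.7 and 2.00 CPM) were low. The T and NK cell list of 8 summed to 231 and 219.9 CPM, of which Nkg7 gave 227 and 217 CPM, while Cd3e was at 0.248 CPM in Ctrl and 0 in cKO. The stem cell list summed to 67.5 and 24.0 CPM, led by Kit, and the macrophage list to 80.4 and 31.3 CPM, led by Vcam1 with C1qa at 1.67 and 0.530 CPM. The eosinophil, basophil and mast cell list summed to 71.5 and 9.02 CPM, the megakaryocyte list to 16.3 and 2.89 CPM and the plasmacytoid dendritic cell list to 52.7 and 15 CPM. Without thinning, 46.5% of Ctrl and 1.44% of cKO cells held at least 3 UMIs of the erythroid list. The shares were 4.34% and 1.22% for the B and plasma cell list and 23.2% and 31.2% for the T and NK cell list. For the monocyte list they were 95.4% and 97.7%.

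Of the kept barcodes, 19.4% in Ctrl were such cells (95% exact interval from 18.5 to 20.3), and 20% in cKO (from 18.9 to 21.2). The difference, cKO minus Ctrl, was 0.653 percentage points with an interval of -0.818 to 2.14, so a difference was not detectable at this depth. With a floor of 1000 UMIs it was 1.98 points (0.691 to 3.29), and with a floor of 4000 UMIs -4.89 points (-6.64 to -3.13), so its sign depended on the floor. The value depended on the denominator too. Among all barcodes past the granule threshold, the cells made up 47.4% in Ctrl and 40.2% in cKO, a difference of -7.22 points (-9.91 to -4.50). When granule barcodes were also required to have Retnlg below 0.5%, the share was 60.2% in both libraries (difference -0.0372 points, -3.22 to 3.12). Among barcodes with at least 2 UMIs of Mki67 and Top2a, the share was 36.6% in Ctrl and 50.8% in cKO. Retnlg-rich barcodes, which the rule removed, were 19.8% of the kept Ctrl and 39.2% of the kept cKO barcodes, and B lineage barcodes were 6.03% and 1.04%, so the rest of each library differed in composition.

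The thresholds cut through continuous distributions. In Ctrl, 52 cells lay at 2% to 3% of UMIs from Camp, Ngp and Ltf, just inside, and 27 barcodes that met the other criteria lay at 1.5% to 2%, just outside. In cKO these numbers were 28 and 9. The bulk lay far from this edge, with a median of 10.6% in Ctrl (quartiles 8.72 and 12.1) and 10.5% in cKO (8.68 and 12.2). At the cycling edge, 117 Ctrl and 58 cKO cells had exactly 2 UMIs of Mki67 and Top2a, while 288 and 159 granule barcodes had 1. At the Retnlg edge, 22 Ctrl and 20 cKO cells lay at 0.25% to 0.5%, and 28 and 27 barcodes at 0.5% to 1%. Retnlg had no UMI in 263 Ctrl and 41 cKO cells.

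Cell cycle RNA was higher in cells with more Mki67 and Top2a UMIs. These are the cycling genes of the rule, so a rise of other mitosis genes along their counts was largely set in advance. The values are a description. The 43 mitosis genes, none of which the rule used, took 0.240% of the summed UMIs of Ctrl granule barcodes with 0 such UMIs, 0.472% with 2, 0.960% with 5 to 9 and 1.46% with 20 or more. In cKO these shares were 0.166%, 0.301%, 0.728% and 1.29%. The 34 DNA replication genes did not follow the same course. Their share was 0.0413% at 0 UMIs, reached 0.340% at 10 to 19 and was 0.269% at 20 or more in Ctrl, and was 0.0130%, 0.313% and 0.238% in cKO. Cells with the most Mki67 and Top2a RNA were also the deepest, with a median of 14845 UMIs in Ctrl and 23185 in cKO, against 5725 and 9316 in cells with 2 such UMIs. The granule share changed little along the same axis, from 10.8% to 9.23% in Ctrl and from 10.9% to 10.0% in cKO.

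**Figure D1:**
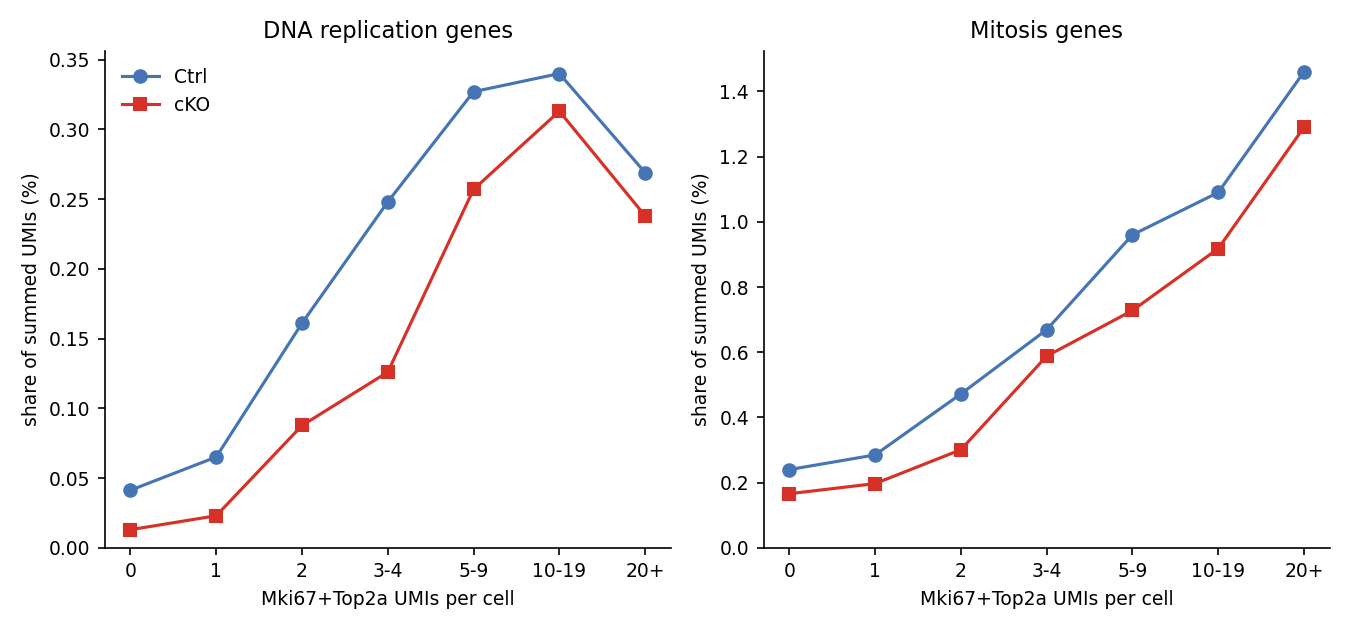
Share of summed UMIs (%) from 34 DNA replication genes (left) and 43 mitosis genes (right) in granule barcodes with Retnlg below 0.5%, by the number of Mki67 and Top2a UMIs per cell; points are the Ctrl and cKO libraries, and bins of 2 or more hold the selected cells. Mitosis genes reach 1.46% and 1.29% in the highest bin, and replication genes peak at 10 to 19 UMIs. The bins count genes of the rule, so the rise of mitosis genes is a description.

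Against the other kept barcodes, the cells stood out by genes of both programmes. UMIs were summed per library, scaled to CPM, and a gene was counted when it lay past 2-fold in the same direction in both libraries, among 3376 genes with at least 50 CPM in any of the sums. This gave 66 higher genes (1.95% of those tested) and 633 lower genes (18.8%). The median log2 ratio over all tested genes was -0.51 in Ctrl and -0.45 in cKO, and median-of-ratios scaling, which removes that shift, moved the counts to 207 higher and 322 lower. The rule used some of these genes, and a group cut from a sample is no test against the rest of it, so the values are a description.

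Beside Camp, Ngp, Fcnb and Chil3, the genes with the highest ratios included Orm1, an acute-phase glycoprotein of secondary granules, at 206 and 212 CPM against 35.8 and 49.2 CPM. Cebpe, the transcription factor of secondary-granule genes, stood at 551 CPM in Ctrl and 556 CPM in cKO against 133 and 171 CPM, a log2 ratio of 2.05 and 1.70. Id2, an inhibitor of basic helix-loop-helix factors, stood at 199 and 245 CPM against 53.3 and 80.9 CPM. Complement C3 was at 867 and 806 CPM against 222 and 277 CPM. Inhba, which encodes the activin A subunit, stood at 113 and 80.0 CPM against 19.5 and 24.7 CPM. These genes were picked for their high ratios, so that they passed 2-fold in both libraries was fixed by that choice. Orm1 and Inhba, like Syne2, Cdkn3, Asf1b, Arhgap19 and Ncam1 below, reached the level for testing only through the selected cells.

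The other leading genes had various roles. Hmgn2, a nucleosome-binding protein, stood at 2196 and 2544 CPM against 674 and 735 CPM. Syne2, a nesprin that ties the nuclear envelope to the cytoskeleton, was at 121 and 97.3 CPM against 26.7 and 27.9 CPM. The cell cycle phosphatase gene Cdkn3 stood at 96.9 and 136 CPM against 28.7 and 29.1 CPM, and the histone chaperone gene Asf1b at 118 and 156 CPM against 41.3 and 32.9 CPM. Arhgap19, which encodes a GTPase-activating protein, was at 119.7 and 90.5 CPM against 40.6 and 28.9 CPM, and Ncam1, which encodes a cell adhesion molecule, at 179.8 and 109.8 CPM against 48.4 and 37.5 CPM. The lowest ratios belonged to Pf4, Ighg2c, Cstdc4, Car2, Ahnak, Fabp5, Ms4a6c, Ctss and Fn1, beside Retnlg, whose low level the rule set. Pf4, the platelet chemokine, had 8.49 and 0.0589 CPM against 217 and 44.2 CPM.

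By list, 7 of 16 secondary-granule genes and 5 of 39 mitosis genes were higher past 2-fold, beside 1.95% of all tested genes, and the secondary-granule genes include 3 that the rule selected on. The rule also required Mki67 and Top2a RNA, so the direction of the mitosis genes was largely set by the selection. Both counts are a description. The 5 mitosis genes were Ube2c, Kif20a, Kif2c, Hmgb2 and Cdca3. The 15 of 80 ribosomal protein genes that were lower were about the same share as the 18.8% of all tested genes. A gene that reached 50 CPM only in the group where it is high had to differ, so lists with such genes are given by the summed level of all their genes, without a filter. The 12 ribosome biogenesis genes summed to 818 CPM in Ctrl and 498 CPM in cKO, against 4608 and 2547 CPM in the other barcodes. The late neutrophil list summed to 5732 and 6973 CPM against 8020 and 20826 CPM, the transcription factor list to 2756 and 2226 CPM against 3284 and 2581 CPM, and the DNA replication list to 2919 and 2461 CPM against 3606 and 2085 CPM, so that replication RNA was lower in Ctrl and higher in cKO. The other barcodes contain cycling progenitors too, so this comparison mixes stages.

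A closer frame came from 3 other groups of kept barcodes. Granule cells without Mki67 or Top2a met the same granule and Retnlg limits but had 0 UMIs of both genes (641 in Ctrl, 439 in cKO). Cycling primary-granule cells had at least 2% of UMIs from Mpo, Elane, Prtn3 and Ctsg, less than 2% from the secondary-granule genes of the rule and at least 2 UMIs of Mki67 and Top2a (652 and 447). Retnlg-rich cells had at least 0.5% Retnlg (1438 and 1767).

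**Figure D2:**
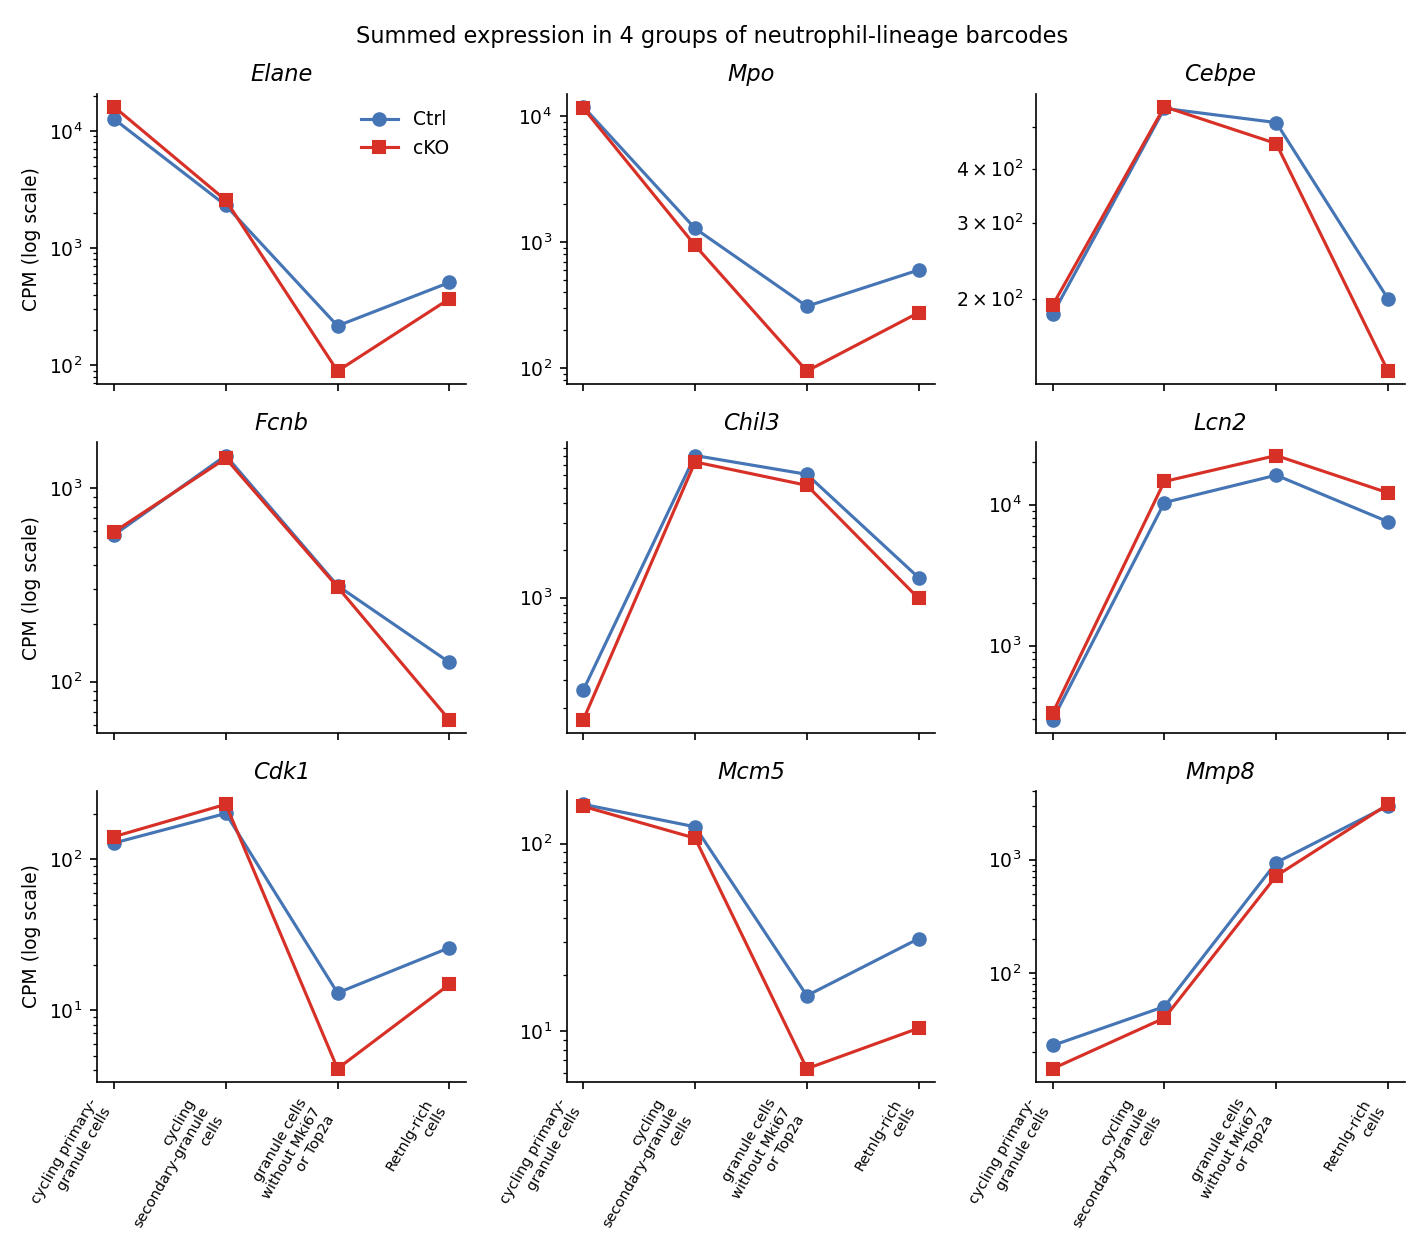
Summed CPM (log scale) of 9 genes in 4 groups of barcodes, with 1 point per group for the Ctrl library and 1 for the cKO library, and no replicates. Cebpe, Fcnb, Chil3 and Cdk1 are highest in the cycling secondary-granule cells in both libraries, Elane and Mpo are highest in cycling primary-granule cells and Mmp8 in Retnlg-rich cells.

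Relative to granule cells without Mki67 or Top2a, the cells were higher past 2-fold in both libraries for 481 of 2618 tested genes (18.4%) and lower for 137 (5.23%), with an all-gene median log2 ratio of 0.14 in Ctrl and 0.15 in cKO. The comparison group was required to lack Mki67 and Top2a RNA, and cell cycle genes reached the level for testing mostly through the cycling cells, so that their direction was largely fixed by the rule and the filter. The values that follow are a description of it, and Ctrl cells of the comparison group were shallow (median 4386 UMIs). Cdk1, the mitotic kinase, had 201 and 231 CPM against 13.0 and 4.09 CPM. Pcna, the replication clamp, had 343 and 279 CPM against 48.1 and 17.6 CPM, and Rrm2, a subunit of ribonucleotide reductase, 234 and 251 CPM against 21.5 and 4.49 CPM.

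The secondary-granule list had a median log2 ratio of -0.46 in Ctrl and -0.27 in cKO, below the all-gene medians. Of 16 genes, only Fcnb passed 2-fold in both libraries, beside 18.4% of all tested genes higher and 5.23% lower. Fcnb had 1479 and 1429.6 CPM against 314 and 309 CPM. Lcn2, which encodes lipocalin 2, was lower in the cycling cells at 10327 and 14574 CPM against 16142 and 22256 CPM, and Lyz2, which encodes lysozyme, at 7959 and 10418 CPM against 14559 and 20096 CPM, both short of 2-fold. Ltf, a gene of the rule, had 8563 and 8310.4 CPM against 16934 and 16909 CPM (log2 -0.98 and -1.02), past 2-fold in cKO only. Cebpe differed little, with log2 ratios of 0.11 and 0.28.

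The late neutrophil list summed to 5732 and 6973 CPM, against 12196 and 14142 CPM in granule cells without Mki67 or Top2a. Mmp8, the neutrophil collagenase, had 50.5 and 40.0 CPM against 941 and 718 CPM, and Mmp9, the gelatinase, 141 and 153 CPM against 1508 and 1532 CPM. Cxcr2, the chemokine receptor of neutrophil release, had 47.6 and 67.1 CPM against 147 and 197 CPM. Outside that list, Ly6g, the surface antigen of mouse neutrophils, had 182 and 189 CPM against 859.8 and 989 CPM, and S100a6 312 and 588 CPM against 1897 and 3583 CPM. The abundant S100a8 and S100a9 did not pass 2-fold, with log2 ratios of -0.24 in both libraries for S100a8 and of -0.32 and -0.28 for S100a9.

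Of 80 ribosomal protein genes, 39 were higher in the cycling cells, beside 18.4% of all genes. The nuclear envelope and ribosome biogenesis lists reached the level for testing in part through the cycling cells alone, so no count is read from them. Lmnb1, which encodes lamin B1, had 153 and 101 CPM against 21.5 and 14.3 CPM. Lbr, the lamin B receptor needed for the lobed neutrophil nucleus, had 442 and 338 CPM against 353 and 278 CPM and did not pass 2-fold. Lmna, which encodes lamins A and C, was near absent at 1.98 and 0.825 CPM.

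Relative to cycling primary-granule cells, 291 of 3344 tested genes were higher (8.70%) and 1040 were lower (31.1%), with an all-gene median log2 ratio of -0.58 in Ctrl and -0.67 in cKO. The 16 secondary-granule genes summed to 133901 and 147226 CPM against 6523 and 6788 CPM. The 12 primary-granule genes summed to 7586 and 8078 CPM against 47178 and 57920.5 CPM. The groups were cut on genes of both lists. Among those the cuts did not use, Lcn2 had 10327 and 14574 CPM against 297 and 331 CPM, and Ms4a3, a membrane protein of granulocyte progenitors, 468 and 461 CPM against 1873 and 2118 CPM. Cd177 had 1315 and 1494 CPM against 44.3 and 44.9 CPM.

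Of 80 ribosomal protein genes, 79 were lower past 2-fold, beside 31.1% of all tested genes. The ribosome biogenesis genes summed to 818 and 498 CPM against 5002 and 4255 CPM. Ribosomal protein genes together took 8.81% of UMIs in Ctrl and 9.66% in cKO, against 26.4% and 29.8% in cycling primary-granule cells and 4.40% and 4.70% in granule cells without Mki67 or Top2a. Npm1, which encodes nucleophosmin, had 213 and 145 CPM against 1495 and 1433 CPM in cycling primary-granule cells. The Myc gene, a driver of ribosome production, had 13.9 and 6.25 CPM against 132 and 97.1 CPM.

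Both of these groups were cycling, by the same cut of at least 2 UMIs of Mki67 and Top2a. The cycling primary-granule cells were deeper, with a median of 18469 UMIs in Ctrl and 25564 in cKO against 10608 and 18297. A fixed number of UMIs asks for a larger share in shallower cells, so the mitosis values that follow are a description. Of 39 mitosis genes, 7 were higher in the preNeu-like cells, beside 8.70% of all tested genes, and none was lower, among them Ube2c (507 and 548 CPM against 221 and 212 CPM) and Ccna2 (182 and 156 CPM against 85.2 and 64.5 CPM). The replication list took 0.292% and 0.246% of UMIs against 0.396% and 0.363%. The G1 and cell cycle control list summed to 2274 and 1953 CPM against 2029 and 1677 CPM, and its members differed among themselves. Ccnd2 was at 13.9 and 3.65 CPM against 152 and 90.0 CPM, while Ccnd3 was at 432 and 452 CPM against 98.5 and 107 CPM. The genes of their kinase partners had lower levels, Cdk4 at 48.9 and 41.1 CPM against 216 and 236 CPM and Cdk6 at 111 and 50.9 CPM against 517 and 408 CPM. Genes of CDK4/6 inhibitors had higher levels, with Cdkn2c at 66.4 and 52.6 CPM against 14.9 and 15.9 CPM and Cdkn2d at 202 and 260.4 CPM against 31.8 and 39.5 CPM.

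The transcription factor list summed to 2756 and 2226 CPM, against 2903 and 2219 CPM in cycling primary-granule cells, and its members differed in both directions. Cebpe stood at 551 and 556 CPM against 184 and 193 CPM, and Id2 at 199 and 245 CPM against 42.4 and 66.0 CPM. Cebpa, which acts earlier in the granulocyte lineage, stood at 11.8 and 4.54 CPM against 58.0 and 43.8 CPM. Gfi1, a repressor needed for neutrophil production, had 61.4 and 32.4 CPM against 136 and 96.7 CPM, and Myb, a progenitor factor, 122 and 59.5 CPM against 658 and 421 CPM. Irf8, which favours monocytes, was lower at 20.1 and 2.18 CPM against 124 and 91.6 CPM. Of 6 NADPH oxidase genes, 5 were higher, beside 8.70% of all tested genes, with Cybb, the catalytic subunit, at 1528 and 1371 CPM against 137 and 123 CPM.

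Within the cells, primary-granule RNA formed a tail. Mpo, Elane, Prtn3 and Ctsg together, which the rule did not use, took a median of 0.0680% of UMIs in Ctrl (quartiles 0.0403 and 0.164) and 0.0572% in cKO (0.0274 and 0.302). The medians in B lineage barcodes were 0.103% in Ctrl and 0.0415% in cKO, so that the lower part of the range cannot be read as expression. The 47 cKO B lineage barcodes were not free of other cells' RNA, since the 12 genes of the primary-granule list took 2.39% of their summed UMIs, against 0.331% in Ctrl. At least 1% was reached by 157 Ctrl cells (11.2%, interval 9.57 to 12.9) and 140 cKO cells (15.5%, 13.2 to 18.0), and at least 2% by 91 (6.48%, 5.25 to 7.89) and 92 (10.2%, 8.29 to 12.3). In cycling primary-granule cells the medians were 3.85% and 4.80%. The share was higher at low than at high levels of the secondary-granule genes of the rule. At 2% to 3% of Camp, Ngp and Ltf the primary-granule share of summed UMIs was 2.46% in Ctrl and 3.47% in cKO, and above 12% it was 0.0661% and 0.0490%. The former cells were deeper, with a median of 13457 UMIs in Ctrl and 23835 in cKO against 9699 and 19113, and the part of doublets in these values was not tested.

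The cells of each library were divided by that share into 3 equal groups of 468 or 469 cells in Ctrl and 301 in cKO. From lowest to highest, the median shares were 0.0316%, 0.0680% and 0.440% in Ctrl and 0.0205%, 0.0572% and 0.881% in cKO. The lowest and middle Ctrl medians lay below the 0.103% of B lineage barcodes, so the order of these groups cannot be read as expression. In cKO the lowest median lay below the 0.0415% there. Median UMIs per cell were 10078, 8942 and 13134 in Ctrl and 19113, 15364 and 19871 in cKO. Of 2645 tested genes, 215 were higher past 2-fold in both libraries in the group with the highest share (8.13%) and 47 were lower (1.78%), with an all-gene median log2 ratio of 0.17 in Ctrl and 0.10 in cKO. The values below run from the lowest over the middle to the highest group. Elane, which defined the groups with 3 other genes, had 81.6, 190 and 5638 CPM in Ctrl and 60, 193 and 6939 CPM in cKO.

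Secondary-granule genes split along this order. Fcnb went from 771 over 954 to 2421 CPM in Ctrl and from 634 over 1153 to 2408 CPM in cKO, and Cd63, which encodes a granule membrane tetraspanin, from 453 over 485 to 1003 CPM and from 405 over 522 to 1055 CPM. Ltf was lower in the highest group, at 12483, 11676 and 3191 CPM in Ctrl and 12879, 10339 and 2314 CPM in cKO. Lcn2 had 14329, 12996 and 5214 CPM in Ctrl and 18046, 18267 and 8146 CPM in cKO. Ngp and Cd177 also passed 2-fold downward. Ltf, Ngp and Camp are genes of the rule, so their values describe cells already selected on them. Camp changed less, from 60229 to 48693 CPM in Ctrl and from 54895 to 47675 CPM in cKO.

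**Figure D3:**
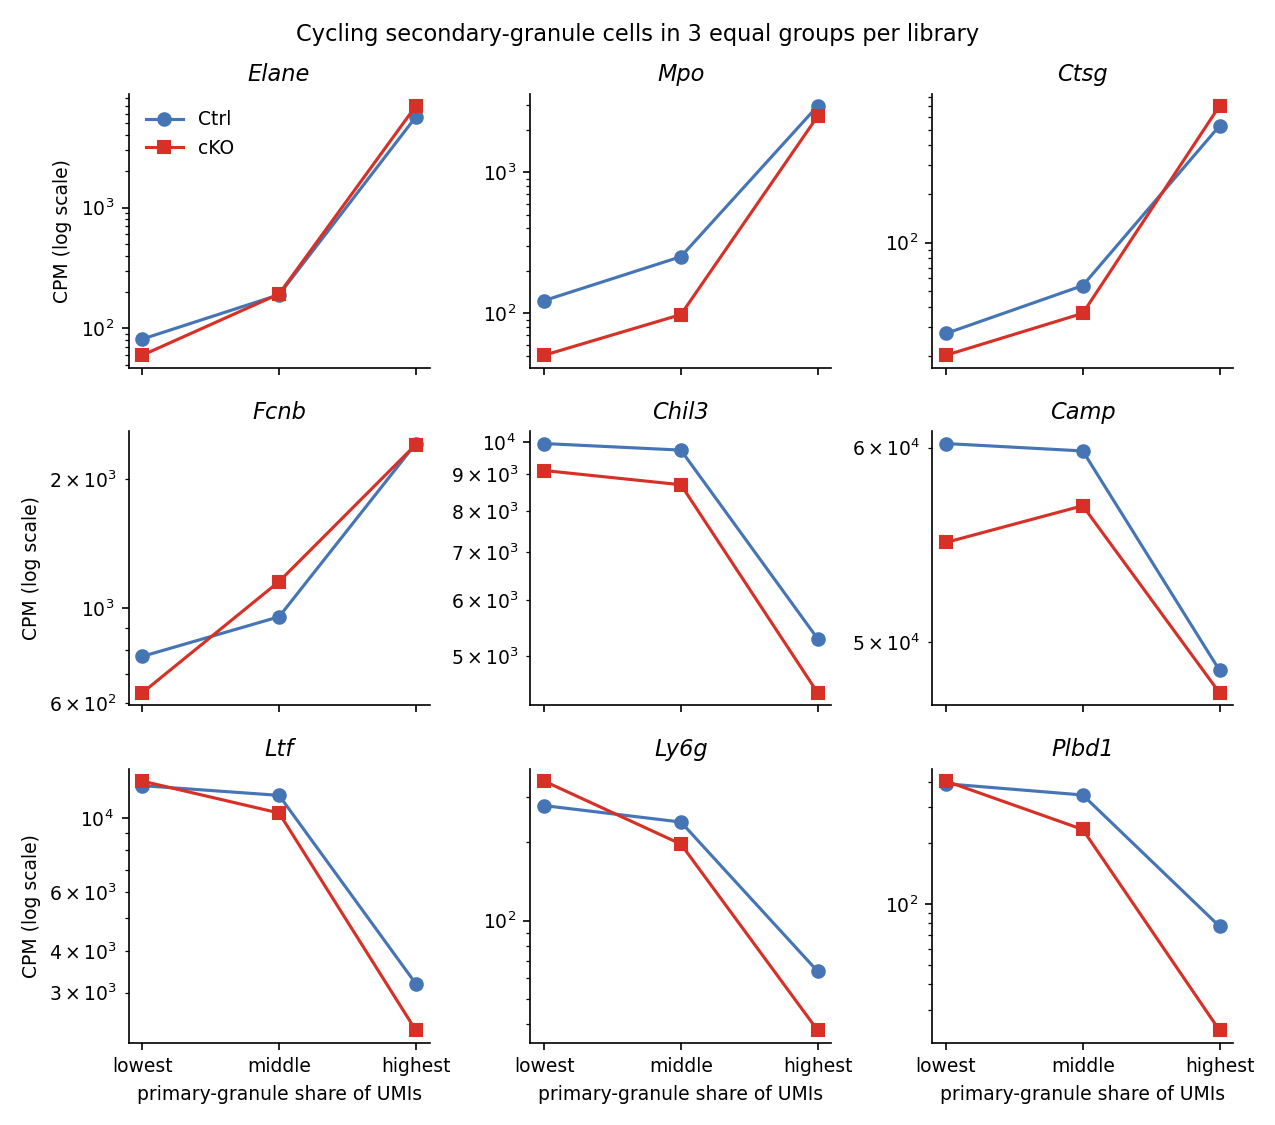
Summed CPM (log scale) of 9 genes in 3 equal groups of the cycling secondary-granule cells per library, ordered by the share of UMIs from Mpo, Elane, Prtn3 and Ctsg; points are the Ctrl and cKO libraries, with no replicates. Fcnb is higher in the highest group (2421 and 2408 CPM), while Ltf (a gene of the rule), Ly6g and Plbd1 are lower there in both libraries. The highest group also has the highest median of UMIs per cell in both libraries.

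Of 80 ribosomal protein genes, 76 were higher past 2-fold in the highest group, beside 8.13% of all tested genes, for example Rps2 at 305, 399 and 1332 CPM in Ctrl and 277, 522 and 1493 CPM in cKO. Of 25 tested replication genes, 8 were higher past 2-fold. Hells, a chromatin remodeller of that list, was at 25.6, 34.9 and 93.0 CPM in Ctrl and 10.7, 22.3 and 47.3 CPM in cKO. It reached the level for testing through the highest group alone, so the count of replication genes is a description and no result is read from it. No tested mitosis gene passed 2-fold. Cdk6 had 51.1, 76.3 and 185 CPM in Ctrl and 19, 36.7 and 92.8 CPM in cKO, and Gstm1, a glutathione transferase, and Mt1, a metallothionein, were among the genes with the largest increase.

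The genes lower in the highest group were led by Plbd1, a granule phospholipase-like protein, at 392, 345 and 77.4 CPM in Ctrl and 404, 233 and 23.7 CPM in cKO. St3gal5, a sialyltransferase, had 265, 228 and 57.5 CPM in Ctrl and 196, 117 and 8.08 CPM in cKO. Ly6g had 277, 239.5 and 63.9 CPM in Ctrl and 344, 197 and 37.9 CPM in cKO. Also among the 10 lowest were Ltf (a gene of the rule), AA467197, 6430548M08Rik, Inhba, Xdh, Ifitm6 and Fpr2. Cebpe stayed within 2-fold, at 607, 580.4 and 485 CPM in Ctrl and 577, 557 and 535 CPM in cKO.

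Between the libraries, Map4k4, the targeted gene (chr1:39900913-40026310, GRCm38, plus strand), had 17.7 CPM in the selected cells of the library labelled Ctrl and 14.4 CPM in that labelled cKO. The log2 ratio of cKO over Ctrl was -0.30 (-0.55 to -0.04), or -0.09 relative to the median of all tested genes. Counts per gene do not show which exons were transcribed. Map4k4 was low in these cells, against 99.1 and 63.9 CPM in granule cells without Mki67 or Top2a and 181 and 133 CPM in Retnlg-rich cells. As the targeted gene separates the libraries weakly, each direction below rests on the libraries' labels. Stat5a had 12.6 and 6.84 CPM (log2 ratio -0.88, -1.22 to -0.54, and -0.68 relative to that median) and Stat5b 34.9 and 24.5 CPM (-0.51, -0.70 to -0.33, and -0.31). Map4k4, Stat5a and Stat5b were all below the 50 CPM used for testing.

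Of 2266 tested genes, 5 were at least 2-fold higher in cKO (0.221%) and 31 were at least 2-fold lower (1.37%). The median log2 ratio of all tested genes was -0.20 (quartiles -0.47 and 0.05), and median-of-ratios scaling, which removes this shift, gave 9 higher and 15 lower genes. Centred values, relative to this median, are therefore given beside the ratios of the main genes and lists. The same median was -0.22 in the other kept barcodes and -0.29 in granule cells without Mki67 or Top2a.

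Fdps, the farnesyl diphosphate synthase of the isoprenoid pathway, had 61.3 CPM in Ctrl and 142 CPM in cKO, a log2 ratio of 1.21 (1.11 to 1.32) and a centred value of 1.42. Without the 10 highest cells of each library the ratio was 1.19. The ratio of Fdps was 1.20 in granule cells without Mki67 or Top2a and 1.36 in Retnlg-rich cells. Ebp, the only other tested gene of 22 in the cholesterol list, had a ratio of 0.14. Tspo, a mitochondrial outer membrane protein, had 375 and 698 CPM, a log2 ratio of 0.90 (centred 1.10).

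The 3 tested Ifitm genes, which encode interferon-induced membrane proteins and lie close together on chromosome 7, were higher in the cKO library. Ifitm2 had 302 and 631 CPM (log2 1.06, 1.01 to 1.11, centred 1.27), Ifitm3 291 and 554 CPM (0.93, centred 1.13) and Ifitm6 919.9 and 1852 CPM (1.01, centred 1.21). In the other kept barcodes the ratio of Ifitm6 was 1.94. Isg15, an interferon-induced ubiquitin-like protein of the same list, was below the level for testing at 7.49 and 3.01 CPM, with a log2 ratio of -1.32 (-1.82 to -0.83). Of 4 tested members of the list, 2 passed 2-fold upward, beside 0.221% of all genes, and 1 lay below the all-gene median. Since poly I:C is stated for the cKO mice only, its effect and that of the genotype cannot be told apart.

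S100a6 had 312 CPM in Ctrl and 588 CPM in cKO (log2 0.91, centred 1.12). The other tested S100 genes were close to each other in ratio, from 0.16 to 0.22. Of 15 late neutrophil genes, 12 lay above the all-gene median (list median 0.19, centred 0.39). Among them Ifitm2 alone passed 2-fold, beside 0.221% of all tested genes higher and 1.37% lower. Retnlg-rich cells were 39.2% of kept barcodes in cKO and 19.8% in Ctrl, and the part of their RNA in these ratios was not tested. All 16 secondary-granule genes lay above the all-gene median, with a list median of 0.11 (centred 0.32) and no gene past 2-fold. The list includes Camp (-0.07), Ngp (0.30) and Ltf (-0.04), which the rule selected on and whose values are not findings. Lcn2 (0.50), Hp (0.58), Anxa1 (0.58) and Lrg1 (0.56) had the highest ratios, and Chil3 (-0.14) the lowest. Of 10 primary-granule genes 8 lay above the median, with Mpo (-0.45) and Calr (-0.56) below it. Glycolysis genes had a median of 0.22 (centred 0.43), with 12 of 13 above the all-gene median and Gapdh at 1119 and 1667 CPM (log2 0.58).

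Among cell cycle lists, the median was -0.14 for 39 mitosis genes (centred 0.06), -0.26 for 20 replication genes (centred -0.06) and -0.38 for 13 genes of G1 and cell cycle control (centred -0.17), of which 9 lay below the all-gene median. Among replication genes, Hells was at 55.1 and 27.4 CPM (log2 -1.01), past 2-fold before centring only (centred -0.80), while Rrm2 (0.10), Tyms (0.01) and Tk1 (0.14) were near 0. Clustered histone genes had a median of 0.21 (centred 0.41), with 22 of 25 above the all-gene median, but Hist1h2ab was higher at 156 and 318 CPM (log2 1.02, centred 1.23) and Hist1h3c lower at 303 and 149 CPM (log2 -1.02), which was within 2-fold after centring (-0.81). These genes have near-identical copies, and reads shared between copies make single members uncertain.

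**Figure D4:**
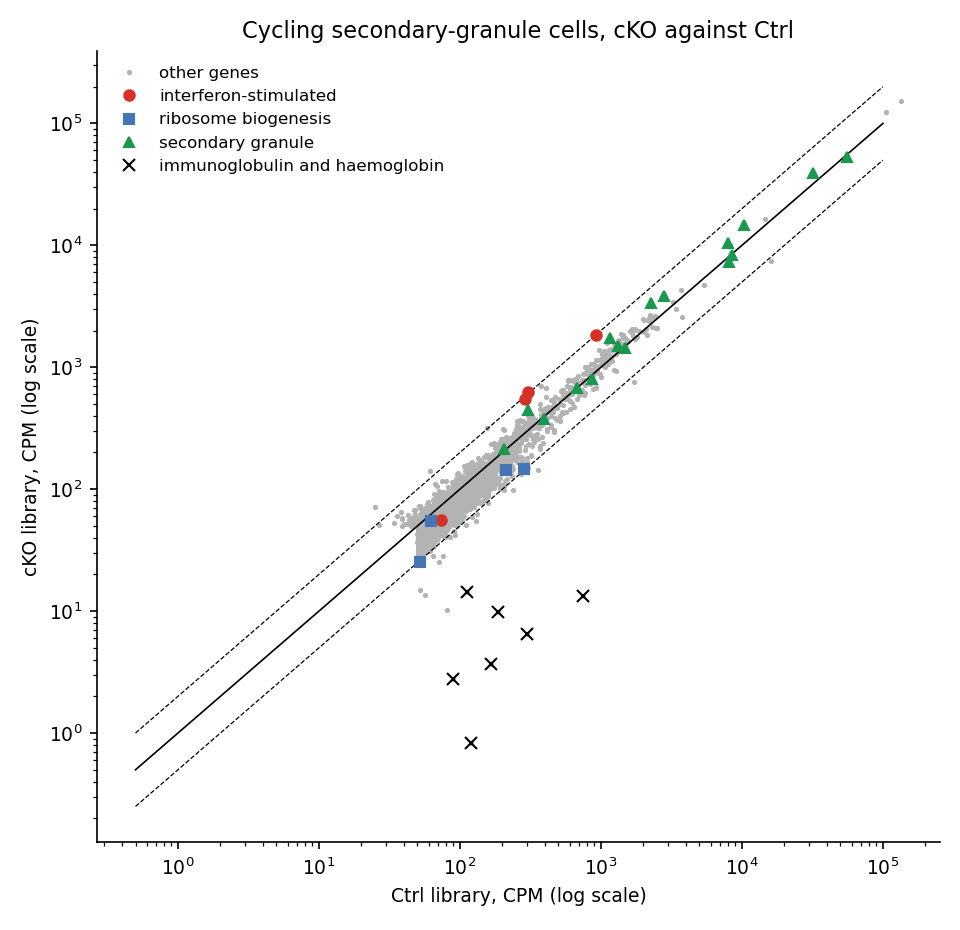
CPM of 2266 tested genes in the cycling secondary-granule cells of the Ctrl (x) and cKO (y) library, both on log scales; each point is 1 gene, the solid line marks equal CPM and the dashed lines 2-fold. The 3 Ifitm genes lie near the upper dashed line, and 7 immunoglobulin and haemoglobin genes (crosses) lie far below the lower line.

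Genes lower in cKO included the immediate early gene Jun, the quiescence-linked factor Klf2 and the progenitor genes Myb and Cdk6. Jun had 237 and 99.0 CPM (log2 -1.26, centred -1.06), Klf2 131 and 55.0 CPM (-1.25, centred -1.05), Myb 122 and 59.5 CPM (-1.04, centred -0.83) and Cdk6 111 and 50.9 CPM (-1.13, centred -0.93). Jun, Klf2 and Myb were the 3 of 14 tested transcription factors past 2-fold, beside 1.37% of all tested genes lower and 0.221% higher. After centring, Myb and Cdk6 were within 2-fold. Gfi1 had a ratio of -0.92 (centred -0.72), while Cebpe (0.01) and Spi1 (0.11), which encodes PU.1, lay above the all-gene median. Ribosome biogenesis genes had a median of -0.75 over 4 tested members, with Nop56 at -1.03 (centred -0.83, within 2-fold) and Ncl at -0.96 (centred -0.75), and the list median was -0.55 after centring, whereas all 80 ribosomal protein genes lay above the all-gene median (list median 0.12, centred 0.32).

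Some abundant transcripts that are not typical of neutrophil granules were lower too. Malat1, a nuclear long non-coding RNA, had 1709 and 756 CPM (log2 -1.18, centred -0.97). Gm42418, a locus that overlaps ribosomal RNA sequence, had 16063 and 7491 CPM (-1.10, centred -0.90) and Lars2, a mitochondrial leucyl-tRNA synthetase, 357 and 145 CPM (-1.29, centred -1.09), so that Malat1 and Gm42418 were within 2-fold after centring. The uncentred ratios in the other kept barcodes were -1.37, -1.12 and -1.13, so these genes were lower in both. The median mitochondrial share, a sign of RNA quality, was 1.20% in Ctrl and 1.07% in cKO, and its part in these differences was not tested.

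The lowest ratios were those of transcripts from other cell types. Igha, an immunoglobulin heavy chain gene, had 751 CPM in Ctrl and 13.3 CPM in cKO (log2 -5.82), Hbb-bs 298 and 6.48 CPM (-5.52), Hba-a1 166 and 3.71 CPM (-5.49), Hba-a2 186 and 9.78 CPM (-4.25) and Jchain 112 and 14.4 CPM (-2.96). After thinning to 2000 UMIs, Igha was detected in 42.6% of Ctrl and 3.43% of cKO cells, against 71.2% and 21.3% of B lineage barcodes, and 10 cells held 67.1% of its Ctrl UMIs. Without the 10 highest cells of each library its ratio was -4.36, that of Hbb-bs -3.38 and that of Hba-a2 -3.93. Of the 1941 Ctrl UMIs of Iglc3, which had the lowest ratio (-7.19), 1856 came from 1 barcode. The erythroid and B and plasma cell lists moved with these genes, as given above, and the part of free RNA and of mixed droplets in them was not tested.

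None of 12 tested receptor and cytokine signalling genes, 7 survival and death genes or 5 kinases of the MAP4K, JNK, p38 and ERK list passed 2-fold, which few genes did in all (0.221% higher and 1.37% lower). Their medians were -0.30 (centred -0.09), -0.45 (centred -0.24) and -0.43 (centred -0.22). Csf3r, the G-CSF receptor, had 133 and 96.9 CPM (log2 -0.45, -0.55 to -0.36, centred -0.25), Mcl1, a survival gene of neutrophils, 99.7 and 68.7 CPM (-0.54, -0.65 to -0.43, centred -0.33) and Csf2rb, the shared beta chain of the GM-CSF receptor, 108 and 142 CPM (0.39, 0.30 to 0.48, centred 0.60).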

How the data were processed

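For each of 2 libraries the authors deposited a matrix of unnormalized counts, UMIs by gene and barcode, made with Cell Ranger 5.0.0 on mm10 per the submitters' processing notes, over 32285 genes. The files still held barcodes under 200 genes, 98 in Ctrl and 92 in cKO, and no doublet caller was run here. Cells, comparison groups and gene lists were chosen with earlier results of these data known. UMIs were summed over the cells of a group and library and scaled to CPM. Log2 ratios carry exact binomial 95% intervals, shares exact Clopper-Pearson intervals and differences of shares Newcombe intervals, for counting error only. A gene was tested at 50 CPM in any compared sum and 10 UMIs, and called past 2-fold. Detection shares were taken after thinning to 2000 UMIs, and detected genes with and without it. Named genes were the rule's genes, members of the lists, Map4k4, Stat5a and Stat5b and the genes with the highest and lowest ratios at 100 CPM or more. Of 32285 identifiers, 32158 are in GENCODE vM21. Python 3.11.15, numpy 2.4.6, scipy 1.17.1 and pandas 2.3.3 were used. On simulated data for cKO against Ctrl, 95.5% of the intervals over 11778 genes held the true ratio. The simulated counts were drawn independently, without spread between cells or libraries. Coverage near 95% was therefore built in, and it checks the calculation and not the spread of these data. Alternatives changed the UMI floor, thresholds, scaling, gene filter and barcodes used. Some members of the gene lists are not reported here by name.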

Additional observations from a re-analysis of the deposited data

Results flagged for a closer look

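The 3 genes below lay past 2-fold in one direction between the libraries in the cycling preNeu-like cells and past 2-fold in the other direction in granule cells without Mki67 or Top2a, and the difference between the groups was not tested. Igha had a log2 ratio (cKO against Ctrl) of -5.82 in the former and 1.87 in the latter, where 7500 of its 7579 cKO UMIs came from 1 barcode and the ratio without the 10 highest cells of each library was -4.94. Jchain had -2.96 and 2.61, with 1794 of 1809 cKO UMIs in 1 barcode and a ratio of -5.43 without the 10 highest cells. Hist1h2ab had 1.02 and -1.80, the latter from 18 Ctrl and 8 cKO UMIs.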

How the results depend on the processing

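No paired analysis was possible because there was 1 library per genotype and no test. The difference in share of kept barcodes, 0.653 points, was 1.98 (0.691 to 3.29) with a floor of 1000 UMIs, 1.5 (0.0463 to 2.98) without barcodes holding UMIs of other lineages (narrower lists), -4.89 with a floor of 4000 UMIs, -1.08 when the rule was applied to barcodes thinned to 2000 UMIs, -7.22 among granule barcodes and 14.2 among Mki67 and Top2a barcodes. With barcodes of 5000 to 20000 UMIs only, an alternative chosen after seeing the data, it was -15.5, and the ratio of median UMIs, 1.72, became 1.18. The 36 genes past 2-fold between the libraries became 19 with means of per-cell proportions, 97 at 20 CPM, 12 at 200 CPM, 1723 without a CPM filter and 23 without barcodes holding UMIs of other lineages (narrower lists, also chosen after seeing the data). The 699 genes past 2-fold against the other barcodes became 1431 at 20 CPM, 173 at 200 CPM, 5907 without a filter and 411 at 5000 to 20000 UMIs. Among 266 named genes and 21 lists, no ratio of cKO over Ctrl past 2-fold changed sign, and reversals among the genes called against the other barcodes were not counted. Of the 266 named genes, 79 changed sign between the libraries in at least 1 of 17 alternatives, 47 of them under median-of-ratios scaling, and 4 of the 21 lists did. The planned removal of barcodes with 3 or more UMIs of 4 marker lists left 12 Ctrl and 8 cKO cells and gave no values. Depth differed between the libraries and limits every count of UMIs per cell.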
